A study of Mus musculus with 8 samples.

Results

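The mouse mitochondrial genome is a small circular DNA present in many copies per cell, and its genes are marked in the mouse annotation by symbols that begin with mt-. All genes with such a symbol were taken, whatever their level, which gave 37 of the 55487 genes in the deposited tables: 13 protein-coding genes, 2 rRNA genes and 22 tRNA genes. The rule reads the symbol and no measured value. The genes were compared between 3 RNA libraries from islets of Ide-/- mice and 5 libraries from islets of Ide+/+ mice. Both groups were C57BL/6J mice, labelled female, whose islets were picked by hand after 2 weeks on a diet with 60 kcal% fat (D12492) begun at 10 weeks of age. Ide encodes insulin-degrading enzyme, a zinc protease that cuts insulin among other small peptides, and the labels give the Ide-/- genotype with no cell type or promoter for the deletion. The samples are labelled as biological replicates without the number of animals behind each, so p-values measure the spread between these samples.

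The mitochondrial coding genes encode core subunits of respiratory complexes I, III and IV and of the ATP synthase (complex V), the machinery of oxidative phosphorylation (OXPHOS). The larger part of these complexes, and all of complex II, is encoded in the nucleus. Both strands of the circle, called heavy and light, are transcribed into long precursors that are cut mainly at the tRNAs lying between the other genes. The 2 rRNAs are parts of the mitochondrial ribosome. In beta cells, ATP made by these complexes closes potassium channels and so couples glucose to insulin release.

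Pairs of coding genes overlap on the same strand and are carried by 1 mRNA, so that reads from the overlap fit either gene. The end of mt-Atp8, which encodes a small subunit of ATP synthase, holds the start of mt-Atp6, which encodes another, and capitals mark the 43 shared bases. The lines give the whole of mt-Atp8 (GRCm38, chrM:7766-7969, plus strand) and the first 90 bases of mt-Atp6 (chrM:7927-8016, plus strand), 5′ to 3′, from the GENCODE M21 transcripts.
mt-Atp8: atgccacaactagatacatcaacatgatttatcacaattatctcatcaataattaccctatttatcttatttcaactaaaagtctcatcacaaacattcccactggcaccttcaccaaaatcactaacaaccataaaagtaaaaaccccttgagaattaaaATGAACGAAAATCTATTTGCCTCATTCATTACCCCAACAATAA
mt-Atp6 start: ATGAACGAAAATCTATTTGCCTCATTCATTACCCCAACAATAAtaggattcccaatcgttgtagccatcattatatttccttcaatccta
The last 60 bases of mt-Nd4l (chrM:10114-10173, plus strand) and the first 60 of mt-Nd4 (chrM:10167-10226, plus strand), both genes of complex I subunits, share the 7 bases in capitals.
mt-Nd4l end: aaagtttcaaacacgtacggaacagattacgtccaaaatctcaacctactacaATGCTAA
mt-Nd4 start: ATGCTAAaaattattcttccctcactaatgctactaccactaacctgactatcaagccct
The ends of mt-Nd5 and mt-Nd6 share 14 bases on opposite strands, and the sources used here do not say whether the counting used strand.

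The tRNA genes gave no information. All 22 had 0 counts in each of the 8 libraries, and for all 22 the deposited effective length was 0. They are 59 to 75 bases long, while the mean fragment was 131.4 to 136.0 bases in Ide-/- libraries and 134.9 to 139.6 bases in Ide+/+ libraries. The longest of them, mt-Tl1 (a leucine tRNA, chrM:2676-2750, plus strand), and the shortest, mt-Ts2 (a serine tRNA, chrM:11613-11671, plus strand), show how little sequence such a fragment would have to fit in.
mt-Tl1: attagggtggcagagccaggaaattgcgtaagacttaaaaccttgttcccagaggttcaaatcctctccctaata
mt-Ts2: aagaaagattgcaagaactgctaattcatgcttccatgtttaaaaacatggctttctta
A listed 0 therefore says nothing about the level of a tRNA in these islets, and the values below are those of the other 15 genes.

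Total counts were 7143424 to 17445976 in Ide-/- libraries and 19277303 to 33371662 in Ide+/+ libraries. Ide itself had 4 to 7 counts in Ide-/- libraries and 256 to 765 in Ide+/+ libraries, as the labels say. Ide+/+ replicate 1 stood apart: it alone had no counts of the Y-linked gene Ddx3y and it alone had abundant Xist (692 counts), while the other 7 libraries, also labelled female, had 503 to 2139 counts of Ddx3y. Markers of acinar cells, the exocrine cells around islets, took 1.10% to 2.68% of counts in Ide-/- libraries and 41.5% to 77.4% in Ide+/+ libraries, and all 36 listed markers were called lower in Ide-/- libraries, where 10.6% of all 16266 genes tested were called lower (edgeR, adjusted p under 0.05). Islet hormone and granule genes took 22.8% to 31.6% of counts in Ide-/- libraries and 5.27% to 16.7% in Ide+/+ libraries. Of the other cell type lists, and beside the same 10.6%, 8 of 11 duct markers and 11 of 12 macrophage markers were called lower in Ide-/- libraries, against 1 of 8 fibroblast and stellate markers and 0 of 10 endothelial markers. In bulk RNA, fewer cells of a type and less RNA per cell cannot be told apart.

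The mitochondrial genes together took a larger share of the counts in Ide-/- libraries. The share was 9.81%, 15.1% and 28.2% in Ide-/- replicates 1 to 3, and 0.512%, 9.43%, 9.28%, 4.92% and 7.21% in Ide+/+ replicates 1 to 5. The mean was 17.7% ± 9.47 (SD) for the 3 Ide-/- libraries and 6.27% ± 3.71 (SD) for the 5 Ide+/+ libraries, a ratio of 2.82. The groups did not overlap, but Ide-/- replicate 1 lay only just above Ide+/+ replicates 2 and 3. Without Ide+/+ replicate 1, whose share was the lowest, the Ide+/+ mean was 7.71% ± 2.12 (SD, n = 4) and the ratio 2.29. Without Ide-/- replicate 3 as well, the shallowest library and the one with the highest share, the ratio was 1.61. Malat1, an RNA kept in the nucleus, moved with the genotype too, at 5.65%, 5.06% and 2.13% of counts in Ide-/- libraries and 0.1003%, 1.16%, 1.21%, 0.712% and 0.483% in Ide+/+ libraries, which did not overlap. Of 4 nuclear-retained RNAs tested, 2 were called higher by edgeR, where 10.4% of all genes were. At an unadjusted p under 0.05, 4 were higher (18.0% of all genes), and DESeq2 called 4 higher (12.5% of all genes). Their median log2 fold change was 1.21 in edgeR. The part of RNA content or quality in the mitochondrial share was not tested.

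This separation of the groups depended on what the share was taken of. Of the counts outside the acinar markers, the mitochondrial genes took 9.92%, 15.5% and 29.0% in Ide-/- libraries and 2.27%, 16.13%, 15.98%, 14.3% and 24.7% in Ide+/+ libraries. Means were then 18.1% ± 9.80 in Ide-/- libraries and 14.7% ± 8.03 in Ide+/+ libraries (SD), and 17.8% ± 4.67 in Ide+/+ libraries without replicate 1. The groups overlapped, with Ide-/- replicate 1 below 4 of the 5 Ide+/+ libraries. For each count of an islet hormone or granule gene there were 0.311, 0.511 and 1.24 mitochondrial counts in Ide-/- libraries and 0.0663, 0.578, 0.557, 0.587 and 1.37 in Ide+/+ libraries, again with overlap. On the TPM scale, which divides by transcript length, the mitochondrial share was 9.67%, 15.7% and 30.1% in Ide-/- libraries and 0.795%, 11.8%, 11.5%, 6.81% and 10.7% in Ide+/+ libraries, and 1 Ide-/- library lay among the Ide+/+ values.

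**Figure D1:**
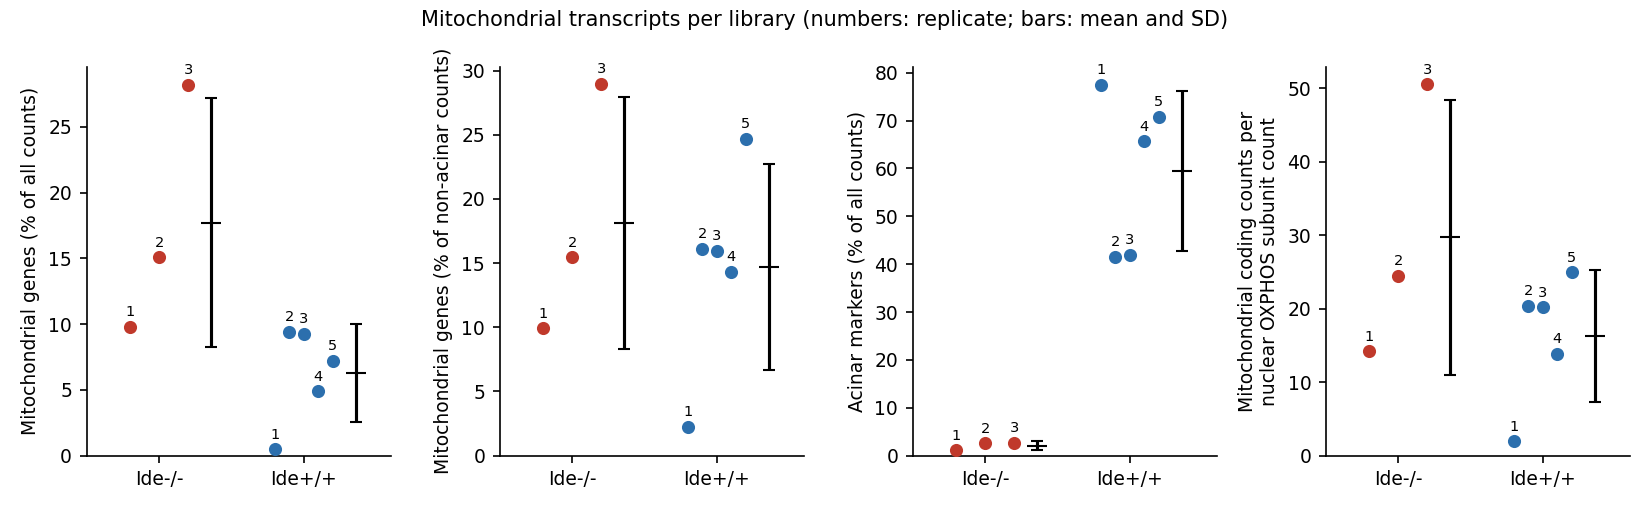
Points are libraries, numbered by replicate, with Ide-/- left of Ide+/+ and the mean and SD beside them. From left to right the axes give the mitochondrial genes as a percent of all counts and of counts outside acinar markers, the acinar markers as a percent of all counts, and mitochondrial coding counts per count of a nuclear OXPHOS subunit. The groups are apart in the first panel (9.81% to 28.2% in Ide-/-, 0.512% to 9.43% in Ide+/+) and overlap in the second and the fourth.

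Within each library the coding genes kept a steep and stable order of levels as counted. Per length, on the TPM scale, mt-Cytb (cytochrome b, the mitochondrial subunit of complex III) and mt-Atp8 held the first and second places among the 13 coding genes in every library. mt-Cytb had 26880, 43370 and 89940 TPM in Ide-/- libraries and 1981, 25390, 26280, 15830 and 28050 TPM in Ide+/+ libraries, which placed it 3rd to 7th among all genes in Ide-/- libraries and 6th to 35th in Ide+/+ libraries. mt-Atp8 had 25260, 42940 and 96100 TPM in Ide-/- libraries and 2259, 28060, 27860, 16720 and 29790 TPM in Ide+/+ libraries. For both genes the highest value was in Ide-/- replicate 3 and the lowest in Ide+/+ replicate 1, and the groups overlapped. The TPM of mt-Atp8 rests on an effective length of 73.3 bases in Ide-/- replicate 1, a fraction of its 204 bases. The places in the middle went to mt-Co2, mt-Atp6, mt-Co1, mt-Nd1 and mt-Nd4, and mt-Co3 was 8th in all 8 libraries. The lowest levels were those of mt-Nd3 (401.1, 455.4 and 420.4 TPM in Ide-/- libraries, against 56.6, 1048, 876.5, 483.7 and 466.2 TPM in Ide+/+ libraries) and mt-Nd4l (480.4 to 810.7 TPM in Ide-/- libraries and 40.2 to 766.0 TPM in Ide+/+ libraries), which held the last 2 places in every library. This order is that of counts as RSEM divided them between the mitochondrial genes and their nuclear copies, which are described further on. With the counts of the copies added and divided by the effective length of the mitochondrial gene, mt-Atp6 was 1st and mt-Co3 4th in all 8 libraries, mt-Cytb and mt-Atp8 were 2nd or 3rd, mt-Nd4l was 9th to 11th, and mt-Nd3 stayed last.

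Counts relative to library size (CPM), scaled by TMM, a method that sets library size from the bulk of the genes, showed no called difference in any mitochondrial gene. Of 16266 genes tested with the edgeR quasi-likelihood test, 21.1% were called at a Benjamini-Hochberg adjusted p under 0.05 (10.4% higher and 10.6% lower in Ide-/- libraries), and of the 15 mitochondrial genes 0 were. At an unadjusted p under 0.05 there was 1, mt-Nd3, and DESeq2 also called 0. The median log2 fold change of the 15 genes was 0.18, beside −0.01 for all tested genes. The TMM factors themselves ran from 1.53 to 2.06 in Ide-/- libraries and from 0.406 to 1.18 in Ide+/+ libraries, and a factor above 1 lowers the CPM of a library relative to its plain share of counts.

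The coding genes of complex I are mt-Nd1, mt-Nd2, mt-Nd3, mt-Nd4, mt-Nd4l, mt-Nd5 and mt-Nd6, and the last is the only coding gene on the minus strand of the reference. mt-Nd1 had 3030, 4737 and 10420 CPM in Ide-/- libraries and 985.3, 6138, 5874, 5465 and 9700 CPM in Ide+/+ libraries. Values of the genotypes overlapped over nearly their whole range, with a log2 difference of 0.11 (SE 0.66) and an adjusted p of 0.922 in edgeR. mt-Nd6 had 439.8, 942.3 and 1567 CPM in Ide-/- libraries and 87.6, 813.1, 811.9, 848.7 and 1474 CPM in Ide+/+ libraries. mt-Nd2, mt-Nd4, mt-Nd5 and mt-Nd6 had log2 fold changes of 0.05 to 0.29 with SEs of 0.64 to 0.68, and mt-Nd4l had −0.29 (SE 0.56). mt-Nd3 had 59.4, 72.4 and 86.5 CPM in Ide-/- libraries, against 28.5, 207.7, 179.3, 164.1 and 199.5 CPM in Ide+/+ libraries. The Ide-/- values lay below 4 of the Ide+/+ values and above that of replicate 1 (log2 fold change −1.10, SE 0.49, adjusted p = 0.128, edgeR).

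mt-Cytb had the most counts of all 13 genes. Its CPM was 18770, 32620 and 86180 in Ide-/- libraries and 4730, 24040, 25790, 25330 and 57310 in Ide+/+ libraries (log2 fold change 0.74, SE 0.79, adjusted p = 0.532, edgeR). The mean was 45860 ± 35600 CPM in Ide-/- libraries and 27440 ± 18890 CPM in Ide+/+ libraries (SD), so the SD was more than the difference. The catalytic core genes of complex IV, cytochrome c oxidase, had log2 fold changes of 0.26 (mt-Co1, SE 0.72), −0.06 (mt-Co2, SE 0.69) and 0.29 (mt-Co3, SE 0.59). mt-Atp6 and mt-Atp8 of ATP synthase had 0.67 (SE 0.72) and 0.76 (SE 0.69). In mt-Co1 the values were 6065, 10520 and 20800 CPM in Ide-/- libraries and 1430, 11250, 11200, 10090 and 18080 CPM in Ide+/+ libraries. In mt-Co2 they were 2664, 4857 and 7660 CPM in Ide-/- libraries and 617.4, 6159, 5910, 5454 and 8306 CPM in Ide+/+ libraries. Of the 3 Ide-/- libraries, replicate 3 was within or above the top of the Ide+/+ range for both genes and replicates 1 and 2 were below at least 3 Ide+/+ libraries in mt-Co2. In mt-Co3 the values were 1383, 2127 and 4420 CPM in Ide-/- libraries and 455.6, 2238, 2259, 2217 and 3632 CPM in Ide+/+ libraries. In mt-Atp6 they were 3192, 6362 and 18460 CPM in Ide-/- libraries and 1170, 4865, 5286, 5756 and 12340 CPM in Ide+/+ libraries, and in mt-Atp8 1280, 2324 and 6941 CPM in Ide-/- libraries and 385.5, 1871, 1905, 1953 and 4245 CPM in Ide+/+ libraries. All 5 genes had their lowest value in Ide+/+ replicate 1, and 4 of them, mt-Co2 being the exception, had their highest in Ide-/- replicate 3. The 5 genes had adjusted p-values of 0.449 to 0.955 in edgeR.

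A single library decided the sign of most of these values. Without Ide-/- replicate 3, all 13 coding genes had a negative log2 fold change, from −1.24 (mt-Nd3) to −0.09 (mt-Cytb), and 0 were called. Without Ide+/+ replicate 1, 2 genes were called lower in Ide-/- libraries by edgeR: mt-Nd3 with a log2 fold change of −1.37 (adjusted p = 0.00124) and mt-Rnr1, the small-subunit rRNA, with −1.40 (adjusted p = 0.00615). Of the 16028 genes tested without that library, 13.3% were called lower, and 2 of the 15 mitochondrial genes is near that share. Without both libraries mt-Nd3 and mt-Rnr1 were again called lower by edgeR, at −1.52 (mt-Nd3, adjusted p = 0.00540) and −1.47 (mt-Rnr1, adjusted p = 0.0219). Of all 16746 genes tested, 1559 were then called lower.

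The make-up of the coding transcripts was read from the share of each gene in the summed counts of all 13, which does not depend on library scaling. Acinar cells have mitochondria too, so the sums hold their transcripts as well, and what part they had in the shares was not tested. Each share was compared by a two-sided exact permutation test over the 56 ways to choose 3 of the 8 libraries, whose smallest p is 0.0179. The 13 shares add up to a fixed total, so they are not independent, and a higher share of 1 gene lowers the sum of the others. Of the 13 genes, 5 had p under 0.05: mt-Nd1, mt-Nd2, mt-Nd3 and mt-Nd4l with lower shares in Ide-/- libraries and mt-Cytb with a higher share. When the counts of every tested gene were divided by the same sum, 2.12% of genes had such a p and 6.14% had groups that did not overlap. Adjusted over all tested genes, the p of each of the 5 was 0.989. With a smallest p of 0.0179, this adjustment could fall under 0.05 only if a large part of all genes had that p. It therefore cannot decide about the 5 genes. Most genes in this background are nuclear, so their values are unlike shares within the 13. With libraries scaled to the 13 genes, edgeR called 0 of the 5.

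mt-Cytb made up 43.6%, 43.4% and 48.6% of the coding counts in Ide-/- libraries and 40.8%, 34.6%, 36.5%, 37.0% and 42.5% in Ide+/+ libraries. Its means were 45.2% ± 2.97 in Ide-/- libraries and 38.3% ± 3.25 in Ide+/+ libraries (SD, n = 3 and 5, exact permutation p = 0.0357). The Ide-/- values were all higher, with Ide+/+ replicate 5 just below the lowest of them. Among the Ide+/+ libraries the share was highest in replicates 1 and 5, which had 77.4% and 70.8% acinar counts, and lowest in replicates 2 and 3, which had 41.5% and 42.0%. mt-Nd1 made up 7.03%, 6.30% and 5.88% in Ide-/- libraries, against 8.50%, 8.84%, 8.31%, 7.99% and 7.19% in Ide+/+ libraries (exact permutation p = 0.0179), a ratio of means of 0.784. mt-Nd2 differed less, at 2.69%, 2.40% and 2.56% in Ide-/- libraries and 2.72%, 2.87%, 2.77%, 2.84% and 2.97% in Ide+/+ libraries (exact permutation p = 0.0179). Its ratio of means was 0.899. In counts, the Ide-/- values of mt-Nd1 and mt-Nd2 lay below every Ide+/+ value. In shares of the summed TPM, the groups overlapped for both genes (exact permutation p = 0.0357 each). Ide-/- replicate 1 was then at 5.793% for mt-Nd1, above Ide+/+ replicate 5 (5.705%). For mt-Nd2 it was at 2.014%, above Ide+/+ replicate 1 (1.938%). The groups of mt-Cytb, mt-Nd3 and mt-Nd4l stayed apart in TPM (exact permutation p = 0.0179 each). What part the higher share of mt-Cytb had in the lower shares of mt-Nd1 and mt-Nd2 was not tested.

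The 2 coding genes with the fewest counts had the lowest ratios of means. mt-Nd3 made up 0.138%, 0.0963% and 0.0488% of the coding counts in Ide-/- libraries and 0.245%, 0.299%, 0.254%, 0.240% and 0.148% in Ide+/+ libraries, a ratio of 0.397 (exact permutation p = 0.0179). mt-Nd4l made up 0.126%, 0.114% and 0.0722% in Ide-/- libraries and 0.133%, 0.166%, 0.156%, 0.159% and 0.146% in Ide+/+ libraries, a ratio of 0.684 (exact permutation p = 0.0179). Ide-/- replicate 3 was the lowest library for both genes, and Ide-/- replicate 1 lay just below the lowest Ide+/+ library for both. mt-Nd4 had 7.35% ± 0.63 in Ide-/- libraries and 8.75% ± 0.63 in Ide+/+ libraries (SD, exact permutation p = 0.0536). mt-Co1, mt-Co2, mt-Co3, mt-Atp6, mt-Atp8, mt-Nd5 and mt-Nd6 had overlapping shares, with exact permutation p-values of 0.196 to 0.875. Without Ide+/+ replicate 1, 2, 3 or 4 in turn, the number of genes with p under 0.05 was 2 each time, mt-Nd2 and mt-Nd4l, while mt-Nd1 and mt-Nd3 were at 0.0571.

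**Figure D2:**
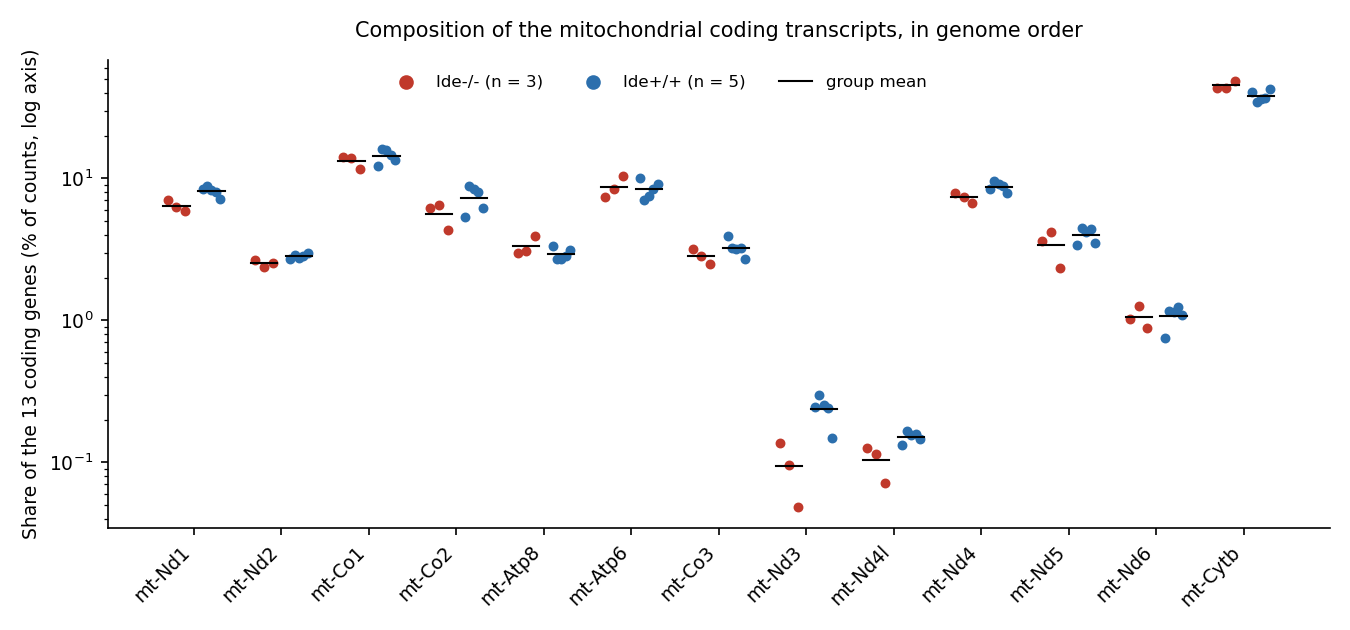
Each point is a library and gives the share of a gene in the summed counts of the 13 coding genes, on a log axis, with genes in genome order, Ide-/- left of Ide+/+ and lines at the group means. mt-Cytb is the largest share in every library (43.4% to 48.6% in Ide-/-, 34.6% to 42.5% in Ide+/+), and the Ide-/- points of mt-Nd1, mt-Nd2, mt-Nd3 and mt-Nd4l lie below all Ide+/+ points.

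The 2 rRNA genes differed between the genotypes in their balance rather than in a called level. mt-Rnr1 (12S, chrM:70-1024, plus strand) had 343.0, 402.7 and 424.7 CPM in Ide-/- libraries and 103.9, 1017, 940.8, 768.3 and 1384 CPM in Ide+/+ libraries. mt-Rnr2 (16S, chrM:1094-2675, plus strand) had 4214, 5597 and 6931 CPM in Ide-/- libraries and 925.9, 9665, 9087, 7637 and 12940 CPM in Ide+/+ libraries. In each gene the Ide-/- values lay below 4 Ide+/+ values and above that of replicate 1, and the log2 fold changes were −1.11 (SE 0.60, adjusted p = 0.204) and −0.53 (SE 0.69, adjusted p = 0.613, edgeR).

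For each mt-Rnr1 count there were 12.3, 13.9 and 16.3 mt-Rnr2 counts in Ide-/- libraries and 8.91, 9.50, 9.66, 9.94 and 9.35 in Ide+/+ libraries. On the log2 scale the ratio of mt-Rnr1 to mt-Rnr2 was −3.82 ± 0.21 in Ide-/- libraries and −3.24 ± 0.06 in Ide+/+ libraries (SD), a difference of −0.57 (two-sided exact permutation p = 0.0179). The groups were apart, and the Ide+/+ libraries, replicate 1 included, lay close together while the Ide-/- libraries spread. With each library left out in turn the difference stayed between −0.67 and −0.47, with exact permutation p-values of 0.0286 to 0.0476. Set against the coding genes, mt-Rnr1 had 0.796, 0.536 and 0.240 counts per 100 coding counts in Ide-/- libraries and 0.896, 1.46, 1.33, 1.12 and 1.03 in Ide+/+ libraries (exact permutation p = 0.0179). mt-Rnr2 had 9.78, 7.45 and 3.91 in Ide-/- libraries and 7.99, 13.9, 12.9, 11.2 and 9.60 in Ide+/+ libraries, which overlapped (exact permutation p = 0.107). Ide-/- replicate 3, with the largest mitochondrial share and the shortest mean fragment, had the lowest values per 100 coding counts for both rRNAs. Its CPM values of mt-Rnr1 (424.7) and mt-Rnr2 (6931) were the highest of the Ide-/- libraries. The part of depth and fragment length in the values per 100 coding counts was not tested.

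**Figure D3:**
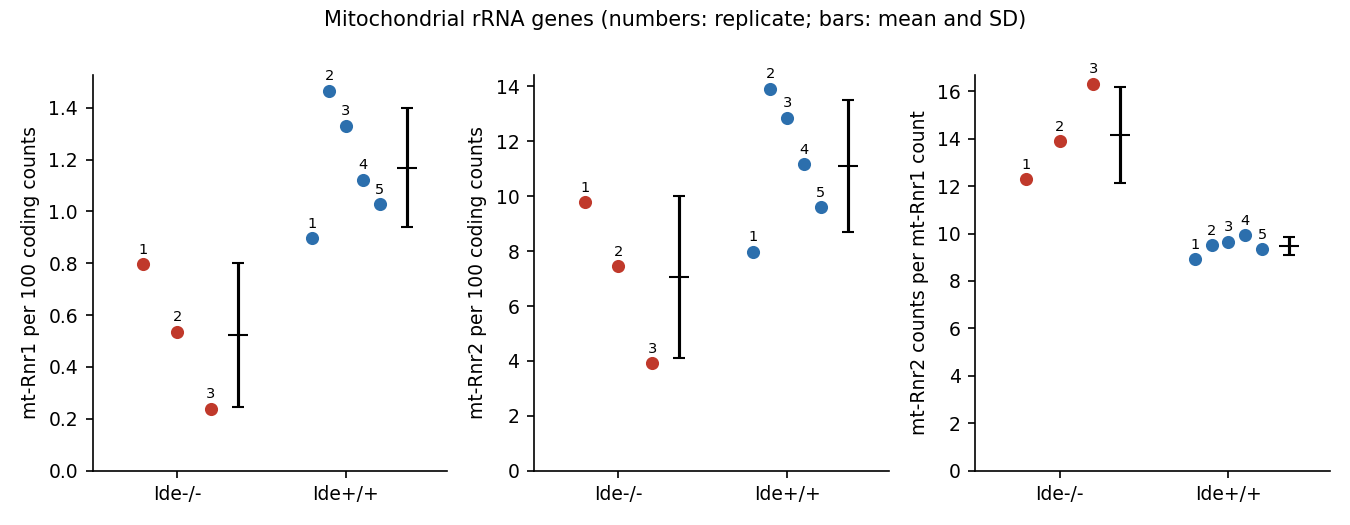
Points are libraries, numbered by replicate, with Ide-/- left of Ide+/+ and the mean and SD beside them. The axes give mt-Rnr1 counts and mt-Rnr2 counts per 100 coding counts, and mt-Rnr2 counts per mt-Rnr1 count, which are 12.3 to 16.3 in Ide-/- and 8.91 to 9.94 in Ide+/+.

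The counts of several mitochondrial genes were shared with nuclear copies. Stretches of mitochondrial DNA inserted into the chromosomes are annotated as pseudogenes, and 17 annotated transcripts outside the mitochondrial genome matched a mitochondrial gene at 90% identity or more over at least 100 bases. Of these, 7 lie side by side on the minus strand of chromosome 1, and 6 of those 7 had a mean of at least 100 counts. All 17 copies together took 23.4% to 24.3% of the counts given to mitochondrial genes and copies in Ide-/- libraries and 23.8% to 26.2% in Ide+/+ libraries. Counts given to a copy that has the same letters as its gene cannot be told apart from counts of the gene, and the division between them is that of the RSEM model.

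Gm10925 (chr1:24613974-24614651, minus strand) equals mt-Atp6 over 678 bases and took 66.0% to 70.7% of the counts of the pair in Ide-/- libraries and 63.1% to 71.4% in Ide+/+ libraries. Gm28437 (chr1:24613189-24613971) equals mt-Co3 over 783 bases and took 76.2% to 77.4% in Ide-/- libraries and 71.3% to 81.3% in Ide+/+ libraries. Gm10222 (mt-Nd4l, 294 equal bases) took 75.9% to 77.7% in Ide-/- libraries and 70.4% to 82.2% in Ide+/+ libraries, and Gm28661 (mt-Co2, 681 equal bases) took 15.5% to 28.8% in Ide-/- libraries and 23.2% to 50.4% in Ide+/+ libraries. In these 4 pairs the groups overlapped. The levels of mt-Atp6, mt-Co3 and mt-Nd4l above are thus less than the counts whose letters match them.

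Gm29216 (chr1:24615706-24616197) differs from mt-Co1, a gene of 1545 bases, at 1 of 483 aligned bases. It took 23.4% to 24.5% of the counts of the pair in Ide-/- libraries and 23.0% to 25.5% in Ide+/+ libraries. A copy on chromosome 2, Gm13340, differs from mt-Co1 at 37 of 1545 bases and had a mean of 7.27 counts. The 70 bases of mt-Co1 at chrM:6390-6459 (plus strand) are shown with Gm29216 (chr1:24616119-24616188, minus strand) and Gm13340 (chr2:22588516-22588585, minus strand), with bases that differ from mt-Co1 in capitals, to show how alike the gene and its copies are.
mt-Co1: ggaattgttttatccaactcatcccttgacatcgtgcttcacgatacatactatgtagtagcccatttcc
Gm29216: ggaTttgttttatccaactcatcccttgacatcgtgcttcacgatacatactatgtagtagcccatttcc
Gm13340: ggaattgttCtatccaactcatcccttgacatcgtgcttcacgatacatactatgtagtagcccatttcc

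mt-Nd3 was the exception among the pairs. Its copy Gm28438 (chr1:24612775-24613119, minus strand) differs from it at 1 of 345 bases, and it took 12.0%, 30.1% and 52.6% of the counts of the pair in Ide-/- replicates 1 to 3. In Ide+/+ replicates 1 to 5 it took 0%, 0.947%, 0.0169%, 0% and 0.283%. The groups were far apart, and this was the only 1 of the 6 pairs in which they were. The first 70 bases of mt-Nd3 (chrM:9459-9528, plus strand) and of Gm28438 (chr1:24613050-24613119, minus strand) are printed with the base that differs in capitals.
mt-Nd3: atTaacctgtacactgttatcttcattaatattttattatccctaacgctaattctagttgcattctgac
Gm28438: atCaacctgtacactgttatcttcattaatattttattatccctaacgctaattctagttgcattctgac
The files hold counts per gene and no reads, so which base the reads carried was not tested. With the counts of Gm28438 alone added to those of mt-Nd3, its share of the coding counts was 0.156%, 0.138% and 0.103% in Ide-/- libraries and 0.245%, 0.302%, 0.254%, 0.240% and 0.148% in Ide+/+ libraries, which overlapped (exact permutation p = 0.0714). With all copies added to all genes, mt-Nd3 was at an exact permutation p of 0.0536, 3 of the 13 genes had an exact permutation p under 0.05 (mt-Nd1, mt-Nd2 and mt-Cytb), and mt-Nd4l was at 0.0536. The call of mt-Nd3 without Ide+/+ replicate 1 was lost when copies were added (log2 fold change −0.68, adjusted p = 0.113, edgeR), and that of mt-Rnr1 was not (−1.40, adjusted p = 0.00606).

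**Figure D4:**
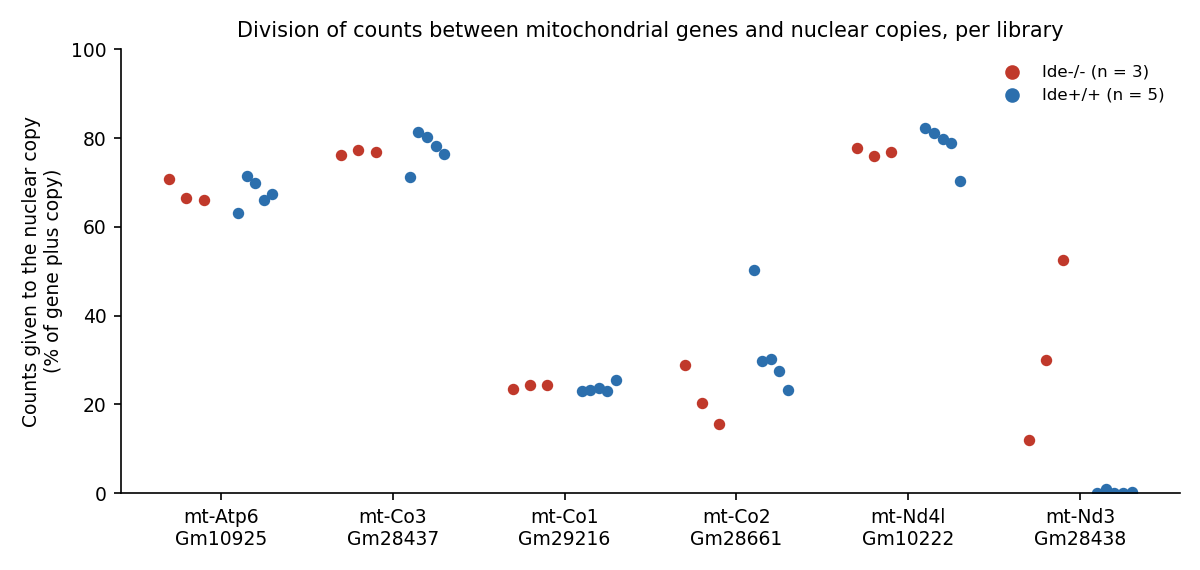
Each point is a library and gives the percent of the counts of a mitochondrial gene plus its chromosome 1 copy that went to the copy, with Ide-/- left of Ide+/+. In 5 pairs the groups overlap, and for mt-Nd3 with Gm28438 the Ide-/- libraries are at 12.0% to 52.6% and the Ide+/+ libraries at 0% to 0.947%.

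Among the nuclear genes of the respiratory complexes, complex II included, the calls on the TMM scale were all towards lower values in Ide-/- libraries, and most genes were not called. Of 75 nuclear OXPHOS subunits tested with edgeR, 0 were called higher and 22 lower, where 10.4% of all genes were called higher and 10.6% lower, with a median log2 fold change of −0.54 beside −0.01 for all genes. At an unadjusted p under 0.05, 0 were higher and 40 lower (18.0% of all genes were higher and 18.1% lower), and DESeq2 called 0 higher and 34 lower (13.5% of all genes were lower). Without complex II, which has no mitochondrial subunit, 20 of 71 were called lower by edgeR. By complex, the called genes were 6 of 36 for complex I, 2 of 4 for complex II, 4 of 9 for complex III, 3 of 11 for complex IV and 7 of 15 for complex V, with median log2 fold changes of −0.43, −0.94, −0.87, −0.44 and −0.60. On log2(TPM + 1) values tested with limma the direction turned, with 12 called higher and 0 lower and a median of 0.41, in a setting where the median of all genes was 0.50 and 36.4% of all genes were called higher and 2.55% lower. With libraries scaled to the 13 mitochondrial coding genes, where 1.7% of all genes were called lower, 0 genes of any nuclear list were called. The count of lower calls was 5, 1 and 2 without Ide-/- replicates 1, 2 and 3. Of all genes, 971 of 17005, 809 of 17031 and 853 of 17048 were then called lower. Without Ide+/+ replicates 1 to 5 the count was 25, 31, 27, 12 and 17. Of all genes, 2139 of 16028, 1674 of 15829, 1610 of 15847, 1101 of 16004 and 1630 of 16588 were then called lower.

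The genes described next are those with the smallest p in each complex, a choice that makes an overlap of the groups unlikely, and 33.0% of all tested genes had CPM values that did not overlap. Cox4i1, a subunit of complex IV, had 59.2, 63.2 and 58.2 CPM in Ide-/- libraries and 134.4, 95.6, 96.7, 138.0 and 137.8 CPM in Ide+/+ libraries (log2 fold change −1.0, SE 0.23, adjusted p = 0.0114, edgeR). Atp5b, the catalytic beta subunit of ATP synthase, had 99.2, 88.0 and 83.6 CPM in Ide-/- libraries and 285.0, 160.8, 155.1, 198.8 and 176.2 CPM in Ide+/+ libraries (log2 fold change −1.11, adjusted p = 0.0137, edgeR). Every Ide-/- value of both genes was below every Ide+/+ value. Cyc1, which encodes cytochrome c1 of complex III, had a log2 fold change of −0.98, Ndufv1 of the NADH-binding part of complex I −0.95 and Sdhd, a membrane anchor of complex II, −0.93, with adjusted p-values of 0.0112, 0.0198 and 0.0181 in edgeR. Ndufb9, Ndufa9, Sdhc, Uqcrfs1, Uqcrh, Cox6a1, Cox5a, Atp5d and Atp5a1 had log2 fold changes of −1.38 to −0.88.

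On the TMM scale, the 36 acinar markers and the called nuclear subunits were all lower in Ide-/- libraries. The direction of the summed subunits turned with what the share was taken of. Of all counts, the nuclear subunits of complexes I, III, IV and V took 0.625%, 0.57% and 0.536% in Ide-/- libraries and 0.237%, 0.401%, 0.402%, 0.316% and 0.261% in Ide+/+ libraries, so all Ide-/- values were higher (ratio of means 1.78). Of counts outside the acinar markers, the same genes took 0.632%, 0.585% and 0.551% in Ide-/- libraries and 1.05%, 0.686%, 0.693%, 0.921% and 0.893% in Ide+/+ libraries, so all Ide-/- values were lower, and the 3 Ide+/+ libraries with the most acinar counts had the highest values. What part acinar transcripts had in the nuclear result was not tested. For each count of a nuclear OXPHOS subunit there were 14.2, 24.5 and 50.5 counts of the mitochondrial coding genes in Ide-/- libraries and 1.98, 20.4, 20.2, 13.9 and 25.0 in Ide+/+ libraries. Ide-/- replicate 3 was the highest, and the other Ide-/- libraries lay among the Ide+/+ values.

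**Figure D5:**
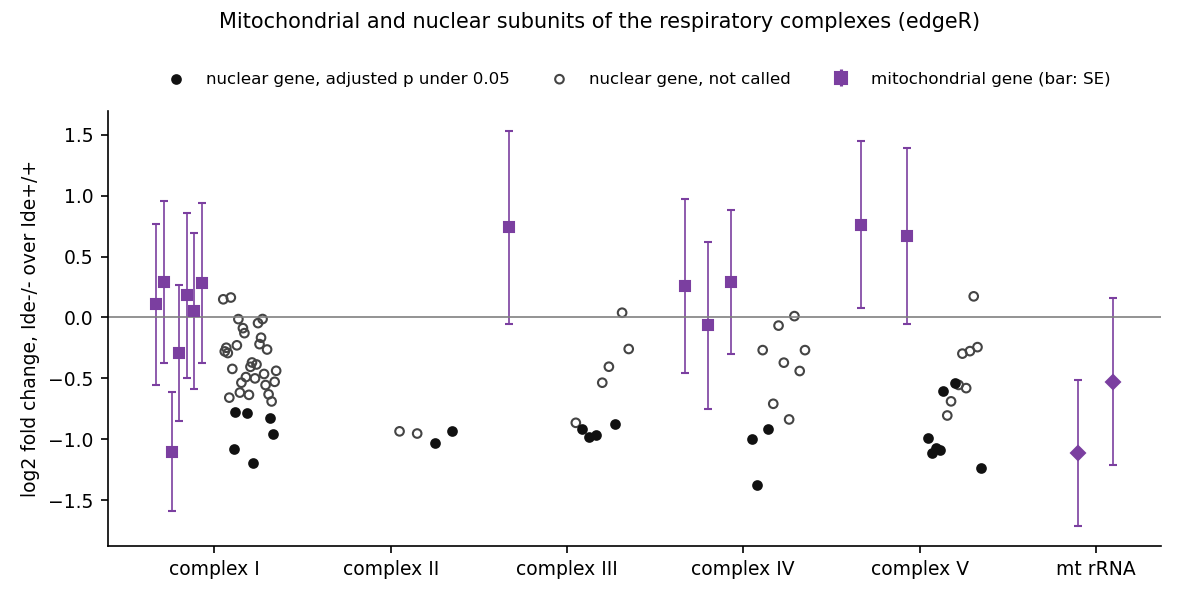
The log2 fold change (Ide-/- over Ide+/+, edgeR, TMM scaling) is plotted for each gene by respiratory complex, with mitochondrial genes as squares, or diamonds for the rRNAs, with SE bars, and nuclear subunits as circles, filled where the adjusted p was under 0.05. All filled circles, 22 of 75, lie below 0, and the 13 mitochondrial coding genes run from −1.10 to 0.76 with SEs of 0.49 to 0.79.

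Nuclear genes that act on mitochondrial DNA and RNA were mostly not called, where 10.4% of all genes were called higher and 10.6% lower. Of 19 genes of mitochondrial DNA transcription and replication, 3 were called higher and 0 lower by edgeR, with a median log2 fold change of 0.15. At an unadjusted p under 0.05, 6 were higher and 3 lower (18.0% of all genes were higher and 18.1% lower). DESeq2 called 4 higher and 0 lower (12.5% of all genes were higher and 13.5% lower). Ssbp1, the protein that binds single-stranded mitochondrial DNA, had 117.8, 111.8 and 165.5 CPM in Ide-/- libraries, against 33.8, 47.5, 51.9, 44.9 and 42.8 CPM in Ide+/+ libraries. Ssbp1 was named for the smallest p in its list, and 33.0% of all tested genes had CPM values that did not overlap. All its Ide-/- values were more than the highest Ide+/+ value (log2 fold change 1.57, SE 0.22, adjusted p = 0.000972, edgeR). The others were Mterf1a (log2 fold change 1.52, adjusted p = 0.00202) and Mterf1b (1.62, adjusted p = 0.00818), which encode close paralogs of the mitochondrial termination factor, so that the division of counts between them is uncertain. With libraries scaled to the 13 mitochondrial coding genes, where 0.129% of all genes were called higher, all 3 calls were lost (log2 fold changes 0.55 to 0.71, adjusted p-values of 0.750 to 0.817). Mterf1b also lost its call without Ide-/- replicate 3, and the 3 calls held under the other alternatives tried.

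Of 33 genes of mitochondrial RNA processing and stability, 2 were called higher and 1 lower, less than the share of all genes in each direction. Slirp, whose protein binds and stabilises mitochondrial mRNAs together with LRPPRC, had 40.2, 51.5 and 66.7 CPM in Ide-/- libraries and 20.9, 24.2, 24.8, 24.6 and 35.5 CPM in Ide+/+ libraries (log2 fold change 1.02, adjusted p = 0.00947, edgeR). Trmu, which thiolates mitochondrial tRNAs, had a log2 fold change of 0.71 (adjusted p = 0.0299, edgeR). Hsd17b10, a subunit of mitochondrial RNase P, had 8.10, 8.42 and 9.08 CPM in Ide-/- libraries and 34.5, 16.01, 17.2, 27.9 and 35.8 CPM in Ide+/+ libraries (log2 fold change −1.62, adjusted p = 0.00382, edgeR). The groups were apart for all 3 genes. Called genes were named by smallest p, a choice that makes an overlap unlikely, and 33.0% of all tested genes had no overlap in CPM. With libraries scaled to islet hormone and granule genes, Slirp (0.83) and Trmu (0.54) were no longer called. Without Ide-/- replicate 3, 0 of the 33 genes were called higher (694 of all 17048 genes were). With the replicate number as a block, 1 of the 33 was called higher. The same number was found without Ide-/- replicate 1, Ide-/- replicate 2 or Ide+/+ replicate 4. Of all genes, 465 to 993 were called higher in these settings.

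Of 78 mitochondrial ribosomal proteins, 0 were called higher and 11 lower by edgeR, near the 10.6% of all genes called lower, with a median log2 fold change of −0.36. At an unadjusted p under 0.05, 1 was higher and 22 lower (18.1% of all genes were lower), and DESeq2 called 0 higher and 15 lower (13.5% of all genes were lower). Those with the smallest p were Mrpl12 (log2 fold change −1.14, adjusted p = 0.00695), Mrpl52 (−0.82, adjusted p = 0.0126) and Mrps7 (−0.79, adjusted p = 0.019). Mrpl12 had 8.47, 7.32 and 7.52 CPM in Ide-/- libraries and 22.7, 13.2, 12.5, 20.7 and 16.9 CPM in Ide+/+ libraries, with no overlap. It was chosen by its p, and 33.0% of all tested genes had no overlap in CPM. Of 8 regulators of mitochondrial biogenesis 0 were called, 0 had an unadjusted p under 0.05 and DESeq2 called 0. The most abundant were Yy1 (log2 fold change 0.17, SE 0.21) and Gabpa (−0.34, SE 0.24), transcription factors that bind promoters of nuclear genes for mitochondrial proteins.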

How the data were processed

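RNA sequencing was done on 8 islet samples. Per the labels' protocols, libraries were made from 100 ng of RNA (integrity number over 6.5) by a low-input kit. The submitters' processing notes name STAR 2.7.1a, RSEM 1.3.1 and the build GRCm38, but neither annotation release nor strand setting (both not given in the sources used here). Per gene, the authors deposited an expected count, the RSEM estimate of reads with multiply matching reads divided by a model, without normalization, and 88.7% to 92.9% of genes per sample had whole values. The authors also deposited TPM, a level per transcript length with a fixed sum per sample. An effective length per gene stands in the same tables.

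Symbols and positions came from GENCODE M21 (GRCm38), which lacked 260 of the 55487 identifiers. Expected counts were rounded and tested with edgeR 4.0.16 in R 4.3.3 (quasi-likelihood, TMM, default low-count filter, genotype as the only term), with Benjamini-Hochberg adjustment over 16266 genes. SEs of log2 fold changes were derived from the F statistic. DESeq2 1.42.0 and limma 3.58.1 on log2(TPM + 1) were alternatives. Shares and ratios were compared with two-sided exact permutation tests. Nuclear copies were found with BLAST 2.17.0 (at least 90% identity over 100 bases) among GENCODE M21 transcripts. The steps were tested on simulated counts. The members and gene lists were chosen with earlier results of these data known. All 13 coding and 2 rRNA genes were named, tRNAs by count, and of each nuclear list up to 3 called genes by smallest p, or otherwise the 2 with the highest CPM. Copies were named as the 4 with the highest mean count, and Gm10222, Gm28438 and Gm13340 after their values were seen. Total counts were 7143424 to 33371662 per library, and the fewest counts of a coding gene were those of mt-Nd3 and mt-Nd4l. No 2 libraries of a group agreed within sampling noise (chi-square per degree of freedom at least 6.47). Ide+/+ replicates 2 and 3 were the most alike, at 6.47, and every other pair within a group had at least 65.2. The tests counted these 2 libraries as separate replicates, and whether they are independent was not tested.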

Additional observations from a re-analysis of the deposited data

Results flagged for a closer look

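In 8 cases 1 of the 5 Ide+/+ libraries lay far from the other 4, by the gap to its nearest neighbour as a part of the whole range. Chance marks about 1 in 20 groups, and 72 sets of 5 values were looked at in this way. mt-Nd3 had 28.5 CPM in Ide+/+ replicate 1 and at least 164.1 CPM in the others. Sdhd had 106.1 CPM, Sdhc 56.9 CPM and Atp5a1 215.8 CPM in Ide+/+ replicate 1, and the other Ide+/+ libraries had at most 69.97, 28.8 and 128.7 CPM. Slirp had 35.5 CPM in Ide+/+ replicate 5 and at most 24.8 CPM in the others. Of the counts that a gene shares with its nuclear copy, the copy Gm28661 of mt-Co2 took 50.4% in Ide+/+ replicate 1 and at most 30.2% in the others, Gm29216 of mt-Co1 took 25.5% in Ide+/+ replicate 5 and at most 23.6% in the others, and Gm10222 of mt-Nd4l took 70.4% in Ide+/+ replicate 5 and at least 78.9% in the others. The 3 Ide-/- samples were too few for this check.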

How the results depend on the processing

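With 3 libraries against 5 no exact p can go below 0.0179. In all 15 mitochondrial genes 0 were called under RLE factors, DESeq2, no low-count filter, the 3 other scalings, limma on TPM, the replicate block and added copies. The alternatives with nuclear copies, and those without 2 libraries at once, were chosen after seeing the data. With copies added and Ide+/+ replicate 1 left out, 1 gene was called lower (2137 of all 16020 genes). Without Ide+/+ replicate 1 and Ide-/- replicate 3, 2 were (1559 of all 16746 genes). With 1 library left out in turn, 0 to 2 were called lower, where 809 to 2139 of all genes were.

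Of the nuclear lists together (213 genes), 5 genes were called higher and 34 lower, where 10.4% and 10.6% of all genes were. DESeq2 called 52 lower (13.5% of all genes), and granule scaling 3 higher (663 of all 16266 genes). Limma on log2(TPM + 1) called 47 higher and 0 lower (36.4% and 2.55% of all genes). On log2(TPM + 0.1) it called 40 and 0 (4737 and 389 of all 16266 genes). With no filter it called 35 and 1 (3873 and 331 of all 30481 genes). In the filtered settings, higher calls by limma were a smaller share of these lists than of all genes. Without Ide+/+ replicate 1 and Ide-/- replicate 3, 21 were lower (1559 of all 16746 genes). With 1 library left out in turn, 2 to 9 were higher and 4 to 46 lower. Of all genes, 694 to 2141 were then higher and 809 to 2139 lower. The same replicate numbers did not mark paired samples (correlations of same-numbered deviations 0.0485, 0.00918 and −0.0934). With the replicate number as a block, 4 genes of the nuclear lists were lower (706 of all 16266 genes). The log2 fold changes of mt-Rnr2 (0.28), mt-Co2 (0.69) and mt-Nd4l (0.50) then turned positive.

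Of the shares among the 13 genes, 5 had p under 0.05. The number was 3 with copies added, when mt-Nd6 differed by 0.000248 percentage points, 4 with the copy of mt-Nd3 alone added, 0 with edgeR scaled to the 13 genes, and 2 to 6 with 1 library left out. With shares taken of TPM, the groups of mt-Nd1 and mt-Nd2 overlapped. The difference in the share of all counts (11.4 percentage points) was 3.44 outside acinar markers, 10.2 of TPM, and 6.17 to 15.4 with 1 library left out.

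Signs turned in genes that were not called. With limma on log2(TPM + 1), filtered or not, and on log2(TPM + 0.1), log2 fold changes were 0.18 and 0.18 for mt-Rnr1, 0.76 and 0.76 for mt-Rnr2, 1.11 and 1.11 for mt-Co2, 0.045 and 0.048 for mt-Nd3 and 0.87 and 0.88 for mt-Nd4l. In called nuclear genes they turned to 0.30 and 0.31 (Ndufv1), 0.0488 and 0.0492 (Uqcrh), 0.0218 and 0.0221 (Cox4i1), 0.41 and 0.42 (Atp5b) and 0.21 and 0.23 (Mrps7), and in Gabpa to 0.28 and 0.42. Under granule scaling mt-Nd1 was at −0.15, mt-Co1 at −0.00309, mt-Nd4 at −0.0786 and mt-Nd5 at −0.21. Scaled to the 13 genes, mt-Nd1 was at −0.35, mt-Nd2 at −0.15, mt-Co1 at −0.13, mt-Co3 at −0.20, mt-Nd4 at −0.25, mt-Nd5 at −0.24 and mt-Nd6 at −0.0395. With copies added and Ide+/+ replicate 1 left out, mt-Nd1 was at −0.17, mt-Co1 at −0.0211, mt-Co3 at −0.11, mt-Nd4 at −0.10, mt-Nd5 at −0.23 and mt-Nd6 at −0.00792. Without Ide+/+ replicate 1 and Ide-/- replicate 3 the values were −0.81 (mt-Nd1), −0.75 (mt-Nd2), −0.62 (mt-Co1), −0.79 (mt-Co2), −0.93 (mt-Nd4l), −0.47 (mt-Atp8), −0.57 (mt-Atp6), −0.57 (mt-Co3), −0.73 (mt-Nd4), −0.56 (mt-Nd5), −0.52 (mt-Nd6), −0.37 (mt-Cytb) and −0.11 (Yy1).

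With 1 library left out in turn the ranges were −0.54 to 0.42 (mt-Nd1), −0.47 to 0.68 (mt-Nd2), −0.33 to 0.58 (mt-Co1), −0.49 to 0.24 (mt-Co2), −0.20 to 1.20 (mt-Atp8), −0.30 to 1.13 (mt-Atp6), −0.30 to 0.59 (mt-Co3), −0.65 to 0.0226 (mt-Nd4l), −0.45 to 0.50 (mt-Nd4), −0.27 to 0.35 (mt-Nd5), −0.22 to 0.63 (mt-Nd6), −0.09 to 1.20 (mt-Cytb) and −0.03 to 0.27 (Yy1). In percentage points of the 13 they were −0.493 to 1.01 (mt-Atp6) and −0.13 to 0.0552 (mt-Nd6). Apart from the effect of leaving out libraries and of scaling itself, the cause was not tested.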
